A study of Mus musculus with 38 samples.

Results

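A set of 7 genes that mark neutrophils and inflammatory myeloid cells, S100a8, Csf3r, Retnlg, Il1r2, Clec4d, Clec4e and Ltf, was followed in whole tissue around growing B16 tumors and in control tissue. All probes annotated to these genes were taken, which gave 7 probes, 1 for each of the 7 genes, among 9890 genes. Only probes of the authors' deposited normalized table could be named, and genes with such a probe are called measured below. The tissue came from C57BL/6 mice aged 8 weeks. The groups were control tissue on 7 arrays and tumor microenvironment of the melanoma line B16-WT on day 4 (4 arrays) and day 14 (5 arrays), of B16-shTGFb on day 4 (6 arrays) and day 14 (5 arrays), and of B16-shVEGF on day 4 (5 arrays) and day 14 (6 arrays) after inoculation. They are called wild-type, shTGFb and shVEGF below. By convention these names stand for short hairpin RNAs against TGF-beta and VEGF; the labels do not describe the constructs or clones, give no line with a control hairpin, and do not say what the control tissue was or how many animals stand behind each group. P-values therefore measure only the spread between these samples, which may be technical.

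Neutrophils are short-lived white cells that leave the bone marrow in response to granulocyte colony-stimulating factor and are drawn into inflamed tissue. They store antimicrobial proteins in granules and in the cytosol. S100a8 encodes a subunit of calprotectin, a calcium-binding and metal-sequestering protein that is abundant in neutrophils and monocytes and is also induced in keratinocytes of inflamed or wounded epidermis. Csf3r encodes the receptor for granulocyte colony-stimulating factor, and Retnlg a resistin-like secreted protein of neutrophils and bone marrow. Il1r2 encodes a decoy receptor that binds interleukin 1 without signalling. Clec4d and Clec4e are neighbouring genes for C-type lectin receptors of myeloid cells, the latter known as Mincle, which recognise microbial glycolipids and, for Mincle, products of dying cells. Ltf encodes lactoferrin, an iron-binding protein of neutrophil granules that gland epithelium also secretes. Krt14, the keratin of basal keratinocytes, served as the epidermal gene against which S100a8 was set.

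On the mouse assembly GRCm38.p6, S100a8 lies at chr3:90669071-90670034, Csf3r at chr4:126023441-126044975, Retnlg at chr16:48872608-48874498, Il1r2 at chr1:40084692-40125230, Ltf at chr9:111019292-111042766 and Krt14 at chr11:100203162-100207510. Clec4d (chr6:123262107-123275268) and Clec4e (chr6:123281789-123289871) lie next to each other and are read in opposite directions. All 7 members were matched in the RefSeq promoter table. The 250 bases before the annotated start are shown for S100a8, Clec4d and Clec4e, the 3 genes that moved together across arrays. The windows are chr3:90668821-90669070 (plus strand), chr6:123261857-123262106 (plus strand) and chr6:123289872-123290121 (minus strand), printed 5′ to 3′ on the strand of the gene, and capitals mark the motif matches.
S100a8: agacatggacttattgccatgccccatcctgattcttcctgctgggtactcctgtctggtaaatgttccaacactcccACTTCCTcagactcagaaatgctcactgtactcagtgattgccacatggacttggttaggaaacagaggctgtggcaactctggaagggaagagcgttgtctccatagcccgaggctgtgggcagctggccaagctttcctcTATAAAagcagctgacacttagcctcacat
Clec4d: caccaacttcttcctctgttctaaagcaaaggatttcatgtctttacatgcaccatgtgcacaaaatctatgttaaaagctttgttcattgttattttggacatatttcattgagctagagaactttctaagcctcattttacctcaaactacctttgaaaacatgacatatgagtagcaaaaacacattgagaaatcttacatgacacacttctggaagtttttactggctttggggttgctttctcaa
Clec4e: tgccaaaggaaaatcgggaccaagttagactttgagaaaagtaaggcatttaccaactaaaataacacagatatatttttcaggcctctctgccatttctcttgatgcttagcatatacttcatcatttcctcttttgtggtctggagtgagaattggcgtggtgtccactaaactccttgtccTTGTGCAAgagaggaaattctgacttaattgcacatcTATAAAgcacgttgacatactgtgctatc
Both strands were searched. The C/EBP motif TTGCNNAA was found in 9.56% of 32851 promoter windows of the same length. The PU.1 motif AGGAAGT was found in 7.69% of them. For AP-1 the letters were TGANTCA, found in 6.75%. For the TATA box they were TATAAA, found in 12.4%. Positions count back from the annotated start. S100a8 held a PU.1 match on the opposite strand at -172 and a TATA match at -30. Clec4e held a C/EBP match on the opposite strand at -66 and a TATA match at -29, and Clec4d held none of the 4 motifs. Among the other members, Retnlg and Ltf each held a C/EBP match on the opposite strand, at -246 and -75. Csf3r and Il1r2 held no match in their windows, chr4:126024409-126024658 and chr1:40085843-40086092. Both windows lie inside the gene spans given above, so they precede a start other than the outermost one. No match overlapped another. A match describes these letters only.

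Between 16519 and 22897 probes per array were detected, meaning that the deposited detection p-value, which sets a probe against the array's own negative controls, was under 0.05. On 3 arrays, wild-type day 4 replicate 4 and wild-type day 14 replicates 2 and 5, decorin (Dcn), a matrix gene of fibroblasts, was not detected, and its log2 intensity was 12.35 or more on the other 35. On these 3 arrays the mean log2 intensity of 12 macrophage genes was 4.64 to 5.26, against 9.12 to 11.13 elsewhere. Differences that rest on wild-type arrays are therefore given with and without these 3. Dct, a pigment gene of melanocytes and melanoma, was at 13.72 or more on 6 of 7 control arrays, so it did not set control apart from tumor tissue. It was at 8.22 or less on control replicate 1, shTGFb day 4 replicate 2, shVEGF day 4 replicate 2 and shVEGF day 14 replicate 2. Tgfb1 differed by 0.42 (SE 0.33) in log2 intensity between shTGFb and wild-type tissue, with a limma adjusted p of 0.369, and by 0.22 without the arrays lacking Dcn. Vegfa differed by -0.17 (SE 0.25) between shVEGF and wild-type tissue, with an adjusted p of 0.687, and without those arrays the sign turned, to 0.13. Whole tissue holds host and tumor cells, so the knockdown in the tumor cells could not be read from these values. In whole tissue, fewer cells of a type and less RNA per cell cannot be told apart.

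S100a8 and 3 other members, Csf3r, Retnlg and Il1r2, were detected on 35 of 38 arrays, and the 3 arrays that missed them were those without Dcn. Clec4d was detected on 34 arrays, missing control replicate 7 as well. Ltf, on 31 arrays, was also missed by control replicate 7, shVEGF day 4 replicates 1 and 3 and shVEGF day 14 replicate 2. Clec4e was detected on 37 arrays, all 3 without Dcn included, where its log2 intensity was 6.00, 6.61 and 6.22, and was missed on shVEGF day 14 replicate 1. It was the only member detected on an array without Dcn.

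**Figure D1:**
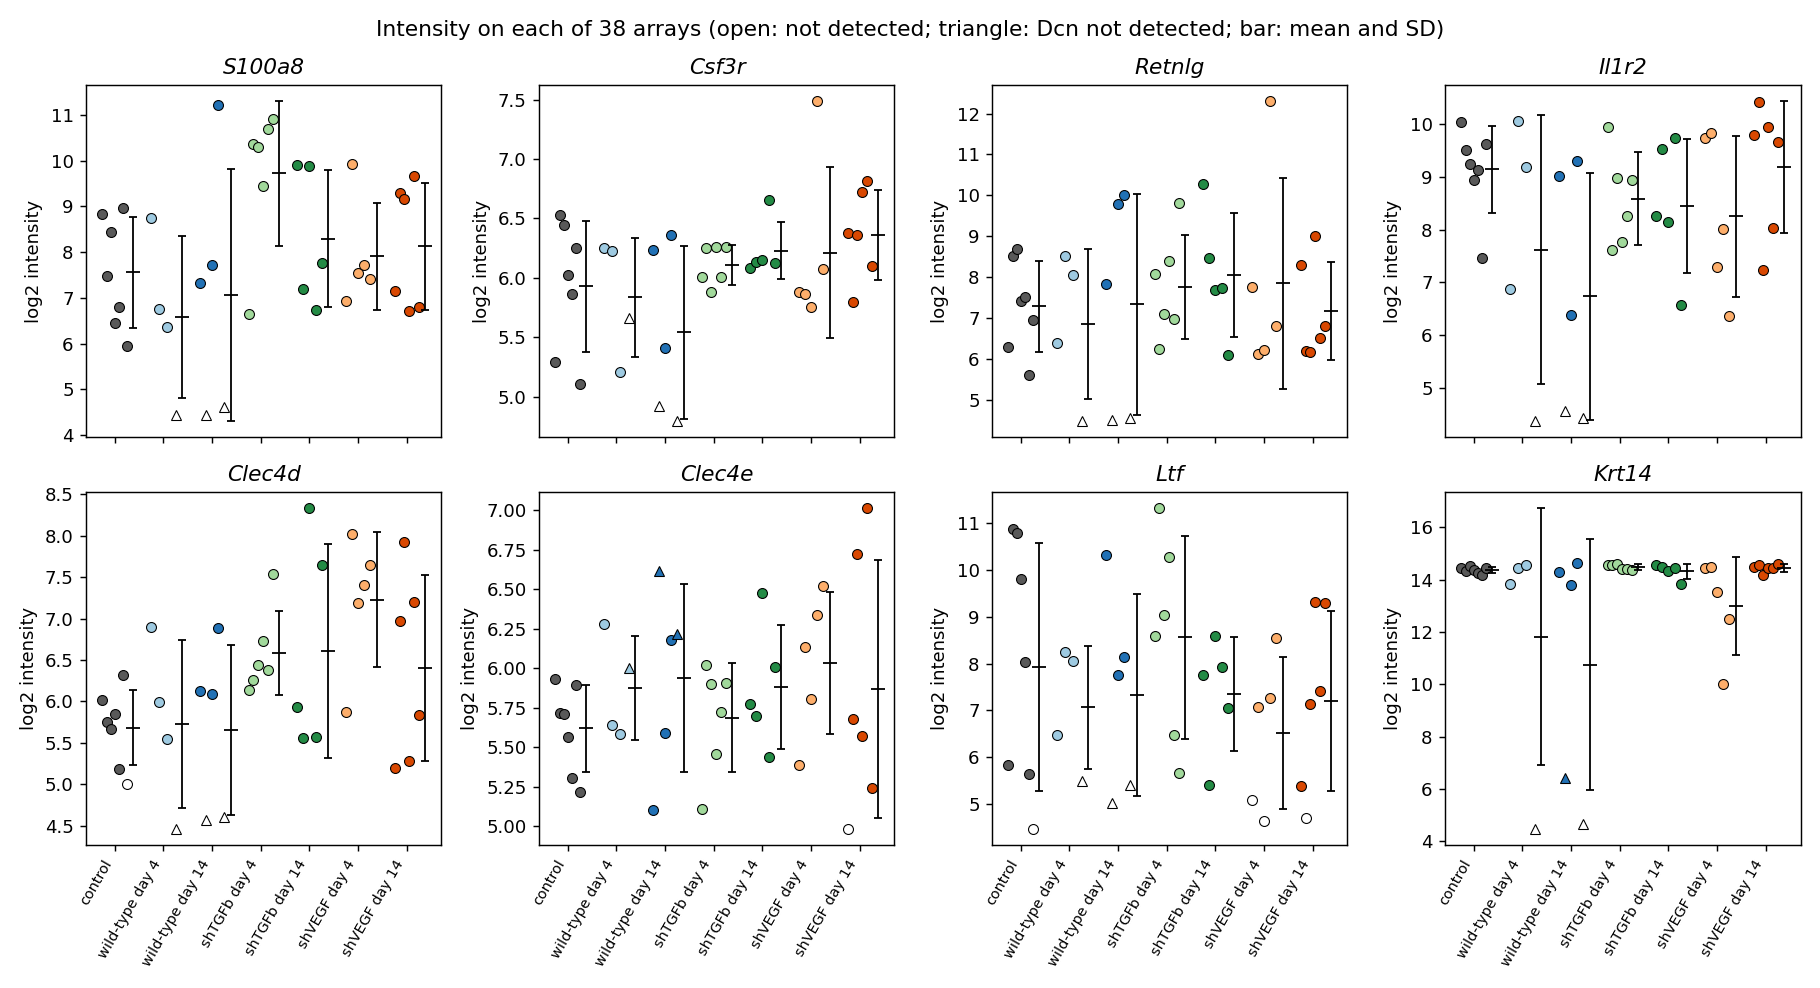
Log2 intensity (vertical axes, a separate scale for each gene) of the 7 members and Krt14 on each of 38 arrays in 7 groups (horizontal axes). Each point is an array, an open point an array on which the gene was not detected, a triangle one of the 3 arrays without Dcn, and bars give the mean and SD over all arrays of the group. S100a8 on shTGFb day 4 lies between 9.44 and 10.90 on 5 arrays and at 6.65 on 1.

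Across the 7 groups no member passed after adjustment over all genes. The unadjusted p of the limma F-test was 0.0459 for Clec4d and 0.0786 or more for the other members. The limma F-test over the 7 group means called 0 of 7 members at an adjusted p under 0.05, with 0% of 9890 genes called (634 at an unadjusted p under 0.05). The limma adjusted p of the members ran from 0.637, for S100a8, Il1r2 and Clec4d, to 0.962, for Retnlg, and was 1 for each without the arrays lacking Dcn. Group membership took up 30.8% of the variance of Clec4d, 27.4% of S100a8, 24.8% of Il1r2, 23.8% of Csf3r, 10.3% of Ltf, 8.91% of Clec4e and 5.17% of Retnlg, against a median of 18.0% over all genes. Without the arrays lacking Dcn the median was 12.7%, Il1r2 was below it, at 10.3%, and Retnlg was above it, at 14.1%. Csf3r was then at 12.6%, Ltf at 13.8%, S100a8 at 26.2% and Clec4e at 9.92%, and Clec4d remained the highest of the 7. Most of the variation in these 7 genes therefore lay between arrays of the same group.

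In 11 comparisons between groups, none of the 77 member differences passed (smallest limma adjusted p 0.118, for Clec4d between shVEGF and wild-type), and 0% of genes were called in each. Unadjusted limma p-values were under 0.05 for 9 of the 77, and for 3 without the arrays lacking Dcn. Over all 9890 genes they were under 0.05 for 2713 between shTGFb and wild-type and 2178 between shVEGF and wild-type. On wild-type day 14 against control there were 2484, and 22 to 296 in each other comparison. Without the arrays lacking Dcn there were 5 to 413 in each of the 11. Of the 7 members, 6 had a positive difference from control on shTGFb day 4 (median 0.48 in log2 intensity), and 5 on shTGFb day 14 (0.30), shVEGF day 4 (0.35) and shVEGF day 14 (0.25), where the medians of all genes were between -0.05 and 0.03. On wild-type day 4 and day 14, 2 of 7 were positive, with medians of -0.43 and -0.39. Without the arrays lacking Dcn, 3 were positive on wild-type day 4 (median -0.04) and 6 on day 14 (0.69). Over all 9890 genes, 4298 to 5399 differences from control were positive in each tumor group, and 4298 to 5331 without the arrays lacking Dcn. These counts rest on shared control arrays. Day 14 and day 4 differed by between -0.29 (Clec4d) and 0.03 (Clec4e and Retnlg) over the 3 lines, with a limma adjusted p of 1 for each member. Without the arrays lacking Dcn they differed by between -0.19 (Clec4d) and 0.39 (Retnlg), with Clec4e at -0.06 and an adjusted p of 0.999 for each. The day difference of shTGFb or shVEGF against that of wild-type had an adjusted p of 0.989 or more for each member, and of 1 without those arrays.

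S100a8 gave the largest member difference from control among the shTGFb and shVEGF groups. Its log2 intensity in control tissue was 5.94 at the lowest, 7.48 at the median and 8.96 at the highest. On shTGFb day 4 it was 6.65 on replicate 1 and 10.35, 10.29, 9.44, 10.68 and 10.90 on replicates 2 to 6. So 5 of the 6 shTGFb day 4 arrays lay above every control array, and the sixth lay inside the control range. On shTGFb day 14 the values were 9.90, 7.20, 9.88, 6.73 and 7.76, with 2 of 5 arrays above the controls. On shVEGF day 4 they were 6.93, 9.92, 7.55, 7.72 and 7.42, and on shVEGF day 14 they ran from 6.70 through a median of 8.15 to 9.66. Both of these groups overlapped control tissue. Wild-type day 4 gave 8.75, 6.75, 6.36 and, without Dcn, 4.44, and wild-type day 14 gave 7.32, 7.73, 11.21 and, without Dcn, 4.45 and 4.61. The highest S100a8 value of all 38 arrays was thus a wild-type day 14 array, replicate 4.

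The mean of S100a8 was 9.72 ± 1.58 (SD, n = 6) on shTGFb day 4 and 7.56 ± 1.21 (SD, n = 7) in control tissue, a log2 difference of 2.16 (SE 0.89) with a limma p of 0.0203 and an adjusted p of 1. With arrays weighted by their own spread in limma, the difference was 2.53 with an adjusted p of 0.0102, a setting under which 775 of 9890 genes were called in that comparison. On the same shTGFb day 4 arrays, all 11 measured genes of gland epithelium had a positive difference from control, with a median of 0.98, and none of them passed. Over all genes, 4474 of 9890 were positive in that comparison, with a median of -0.03. The part of these gland genes in the S100a8 value was not tested. Over both days, S100a8 was 2.19 (SE 0.72) higher in fitted log2 intensity on shTGFb than on wild-type tissue, with a limma adjusted p of 0.119. Without the 3 arrays lacking Dcn this difference was 0.99 (SE 0.70) with an adjusted p of 0.999, and without wild-type day 14 replicate 4 it was 2.71 with an adjusted p of 0.031. The latter set keeps the 3 arrays lacking Dcn, and 1673 of 9890 genes were called in that comparison.

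Clec4d and Clec4e had their largest differences from control on shVEGF day 4. Clec4d in control tissue ran from 5.01 (not detected) through a median of 5.75 to 6.31. On shVEGF day 4 it was 5.88, 8.03, 7.19, 7.40 and 7.65, so that 4 of 5 arrays lay above every control array. The difference was 1.55 (SE 0.52) in log2 intensity with a limma p of 0.00509 and an adjusted p of 0.999. Control means were 5.68 ± 0.46 (SD, n = 7) and shVEGF day 4 means 7.23 ± 0.82 (SD, n = 5). Clec4d on shTGFb day 4 ran from 6.14 through 6.41 to 7.54, and on shTGFb day 14 it was 5.94, 5.56, 8.33, 5.57 and 7.65. It was high on 2 of the 5 shTGFb day 14 arrays and inside the control range on 3. On shVEGF day 14 it ran from 5.19 through 6.41 to 7.92. Wild-type day 4 arrays gave 6.90, 5.99, 5.54 and, without Dcn, 4.46, and wild-type day 14 gave 6.12, 6.09, 6.89 and, without Dcn, 4.57 and 4.60. The difference between shVEGF and wild-type over both days was 1.13 (limma adjusted p = 0.118), and 0.56 (adjusted p = 1) without the arrays lacking Dcn. Without wild-type day 14 replicate 4 it was 1.28 (adjusted p = 0.0437). That set keeps the arrays lacking Dcn, and 886 of 9890 genes were called in the comparison.

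Clec4e moved over a narrower range. It was 5.22 to 5.93 in control tissue, with a median of 5.71, and 5.39, 6.13, 5.81, 6.34 and 6.52 on shVEGF day 4. Of those 5 arrays, 3 lay above the controls. The difference was 0.42 (SE 0.29, limma adjusted p = 0.999). Its highest values were 7.01 and 6.72, on shVEGF day 14 replicates 5 and 3, where Clec4d was 7.20 and 7.92. On shTGFb day 14 it was 5.78, 5.70, 6.48, 5.44 and 6.01, highest on the array with the highest Clec4d.

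**Figure D2:**
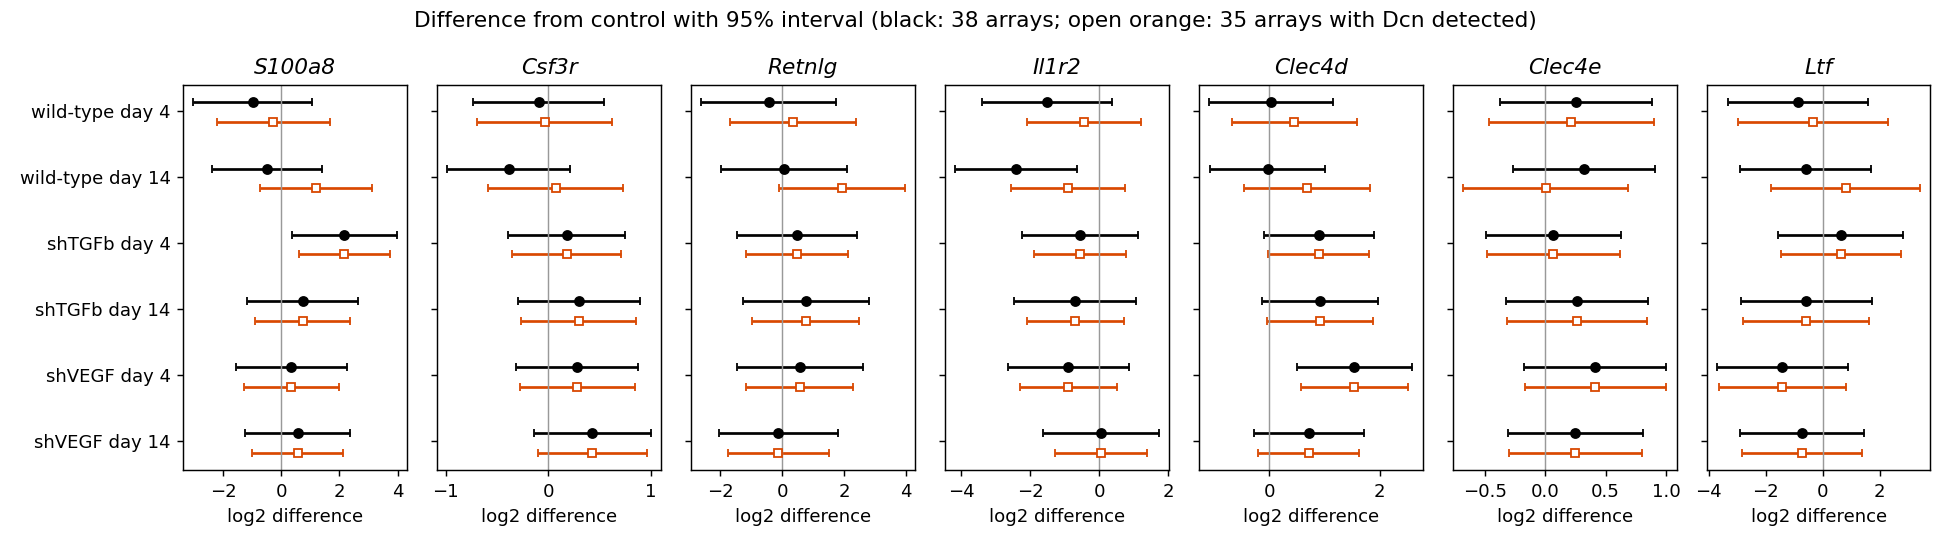
Difference in log2 intensity from control (horizontal axes, a separate scale for each gene) for the 7 members in 6 tumor groups, with limma's 95% interval. Black points are from all 38 arrays and open orange squares from the 35 arrays with Dcn detected. The intervals of S100a8 on shTGFb day 4 and of Clec4d on shVEGF day 4 lie above 0 in both, from 0.36 to 3.96 and from 0.50 to 2.60 over 38 arrays, and neither difference passed after adjustment.

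Csf3r varied little. It was 5.11 to 6.52 in control tissue with a median of 6.02, and 5.88 to 6.26 on shTGFb day 4. Its highest value, 7.49, was on shVEGF day 4 replicate 4, and the other arrays of that group were at 5.88, 5.87, 5.76 and 6.07. Among the tumor groups its fitted difference from control with the smallest p was 0.43 (SE 0.28, limma adjusted p = 1), on shVEGF day 14. Between shVEGF and wild-type over both days it was 0.60 (adjusted p = 0.137), and 0.34 without the arrays lacking Dcn. Without wild-type day 14 replicate 4 it was 0.70 (adjusted p = 0.0475). That set keeps the arrays lacking Dcn, and 886 of 9890 genes were called in the comparison.

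Retnlg was high on a few arrays spread over several groups. It ran from 5.60 through 7.42 to 8.69 in control tissue. On shVEGF day 4 it was 7.76, 6.13, 6.23, 12.31 and 6.81, so 1 array of 5 stood far above the rest. The next highest values were 10.28 on shTGFb day 14 replicate 1, 10.02 and 9.79 on wild-type day 14 replicates 4 and 3, and 9.81 on shTGFb day 4 replicate 6. The array with the highest Retnlg, shVEGF day 4 replicate 4, also held the highest Csf3r and the lowest Krt14 of the 35 arrays with Dcn, 10.01, where 33 of the 35 were at 13.51 or more. Over 38 arrays the difference from control with the smallest p was 0.76 (SE 1.00, limma adjusted p = 0.999), on shTGFb day 14, and it was 0.21 without replicate 1 of that group. On wild-type day 14 the difference was 0.05 over 38 arrays and 1.92 (SE 0.99, limma adjusted p = 1) without the arrays lacking Dcn, the largest Retnlg difference from control on those 35 arrays.

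Il1r2 was lower in log2 intensity on wild-type day 14 than in control tissue by a difference that depended on the arrays lacking Dcn. In control tissue it ran from 7.47 through 9.25 to 10.05. On wild-type day 14 it was 9.02, 6.38, 9.29 and, without Dcn, 4.56 and 4.42. The difference was -2.40 (SE 0.87, limma adjusted p = 0.143), and -0.91 (SE 0.81, adjusted p = 1) without the arrays lacking Dcn. Leaving out wild-type day 14 replicate 1 gave -2.98 with an adjusted p of 0.0346, and leaving out replicate 4 gave -3.04 with 0.0385. Both sets hold the 2 arrays lacking Dcn, and 1443 and 1284 of 9890 genes were called in them. On the shVEGF day 14 arrays Il1r2 ran from 7.24 through 9.73 to 10.43.

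Ltf had the widest spread within control tissue of the 7 members, from 4.47 (not detected) through 8.04 to 10.89. On shVEGF day 4 it was 5.07, 7.07, 4.64, 7.26 and 8.55, with the 5.07 and 4.64 not detected. The difference was -1.41 (SE 1.13, limma adjusted p = 0.999). The highest Ltf value, 11.32, was on shTGFb day 4 replicate 2, which also held the highest Krt8 and Krt19, keratins of gland epithelium, at 12.42 and 10.33. Ltf levels within the group ran from 5.65 through 8.81 to 11.32.

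Over the 35 arrays with Dcn, the 7 genes did not move as 1 set. Of the 21 pairs of members, 10 had a Pearson r below 0 and 13 had an r between -0.3 and 0.3, with a median of 0.01. Over 28 pairs with Krt14 included, 6 had a Benjamini-Hochberg adjusted permutation p under 0.05 (two-sided, 100000 resamples), 4 of them positive. Clec4d and Clec4e, the neighbouring lectin receptors, were the closest pair (r = 0.76, rho = 0.76, p = 1e-05 and adjusted p = 0.00028 for both, the smallest these permutations can give), with r = 0.75 without the 2 arrays farthest from the median of Clec4e and 0.78 on deviations from group means. On all 38 arrays it was 0.47.

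S100a8 followed Clec4d and Clec4e. With Clec4d the correlation was r = 0.57 (p = 0.00052, adjusted p = 0.00635) and rho = 0.66 (p = 6e-05, adjusted p = 0.00056), with r = 0.52 without the 2 arrays farthest in Clec4d. With Clec4e it was r = 0.55 (p = 0.00068, adjusted p = 0.00635) and rho = 0.67 (p = 3e-05, adjusted p = 0.00042), with r = 0.55 without the 2 farthest arrays in Clec4e. Within groups the correlations were 0.65 (adjusted p = 0.00187) and 0.72 (adjusted p = 0.00042), so they did not rest on differences between group means. On all 38 arrays the correlation with Clec4d was 0.69, and that with Clec4e was 0.26 with an adjusted p of 0.155, since Clec4e was detected on the 3 arrays where S100a8 was not.

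S100a8 did not follow the other 4 members detectably. The correlation was 0.14 with Csf3r (rho 0.18; p = 0.413 and 0.306, adjusted 0.642 and 0.504), -0.03 with Retnlg (rho -0.12; p = 0.847 and 0.479, adjusted 0.894 and 0.67) and 0.01 with Ltf (rho -0.05; p = 0.964 and 0.792, adjusted 0.964 and 0.796). With Il1r2 it was -0.24 (rho -0.36; p = 0.163 and 0.0361, adjusted 0.325 and 0.132). Without the 2 farthest arrays of the other gene these r were 0.10, -0.08, -0.17 and -0.35. Csf3r ran only from 5.11 to 7.49 in log2 intensity on the 35 arrays, which leaves it little range. Clec4e, from 4.98 to 7.01, had no more. Both lay near background: Csf3r was not detected at 5.66 on wild-type day 4 replicate 4, and Clec4e at 4.98 on shVEGF day 14 replicate 1.

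With Krt14 the correlation of S100a8 was also weak, r = 0.13 (p = 0.502, adjusted p = 0.67) and rho = 0.09 (p = 0.605, adjusted p = 0.678), with 0.14 without the 2 arrays farthest in Krt14 and 0.08 within groups. Krt14 lay between 13.51 and 14.63 on 33 of these 35 arrays, which leaves it little range. On all 38 arrays r was 0.58 (adjusted p = 0.00028): the 3 arrays lacking Dcn, low for both genes, stood apart from the rest. The correlation of S100a8 with Clec4d exceeded that with Krt14 by 0.43 (adjusted p = 0.0266), and that with Clec4e by 0.42 (adjusted p = 0.0205), in a two-sided permutation test that exchanged the standardized values of both genes within arrays, adjusted over 6 members. For Csf3r the excess was 0.01 (adjusted p = 0.959). Il1r2 was below Krt14 by -0.37 (adjusted p = 0.0149).

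Given Krt14, the partial correlation of S100a8 with Clec4d was 0.66 and with Clec4e 0.64 (permutation adjusted p = 0.0003 for both, over 12 partial correlations). Given Clec4d or Clec4e, that with Krt14 was 0.43 (adjusted p = 0.0242) or 0.40 (adjusted p = 0.0301), and 0.44 or 0.32 without the 2 arrays farthest in Krt14. None of the rest of the 12 passed. Given Csf3r, Retnlg, Il1r2 or Ltf, the partial correlation with Krt14 was 0.22, 0.13, 0.27 or 0.13. Given Krt14, that with Il1r2 was -0.33 (permutation adjusted p = 0.121), and -0.58 without the 2 arrays farthest in Krt14. Both lectin receptors had negative correlations with Krt14, -0.35 and -0.33 (adjusted p = 0.0948 and 0.135). Clec4d and Clec4e were higher on arrays with fewer detected probes (r = -0.46 and -0.57, rho = -0.40 and -0.57, permutation adjusted p = 0.0119 and 0.0018 over 8 genes), and S100a8 had r = -0.19 with that number (adjusted p = 0.364), rho = -0.32 (permutation p = 0.0631) and r = -0.35 without the 2 farthest arrays. Given the number of detected probes, a step added after seeing the data, S100a8 had a partial correlation of 0.55 with each of them (adjusted p = 0.00653 and 0.0056).

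**Figure D3:**
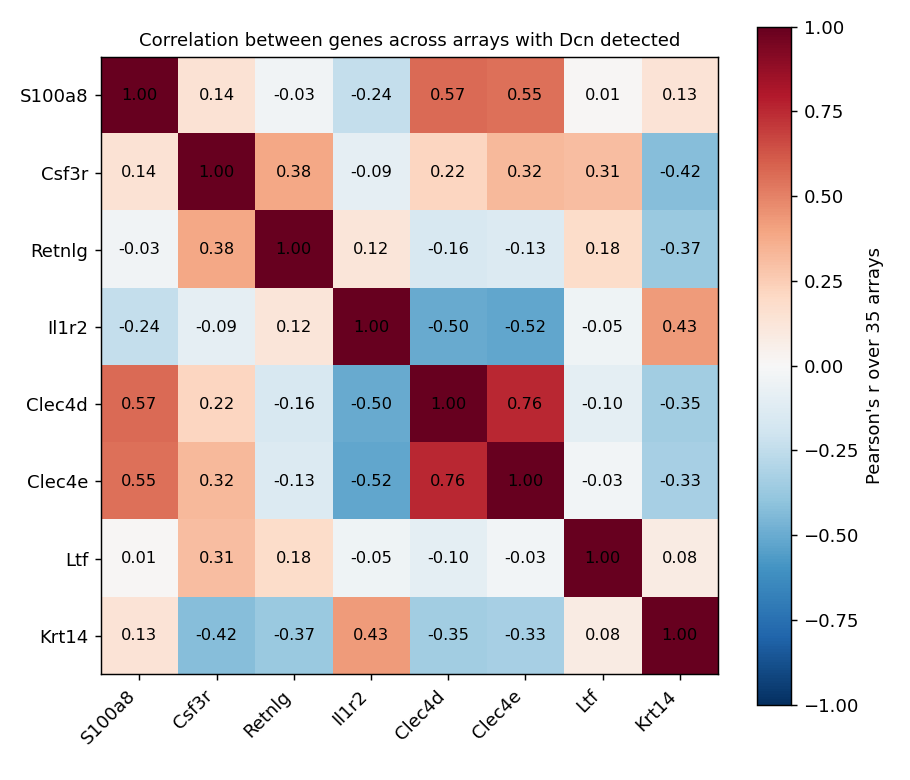
Pearson r between the 7 members and Krt14 over the 35 arrays with Dcn detected, as colour from blue (-1) to red (1) with the value printed. S100a8, Clec4d and Clec4e form a block with r of 0.55 to 0.76, and Il1r2 is negative with both lectin receptors, at -0.50 and -0.52.

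Il1r2 ran against the lectin receptors and with Krt14, but many other genes lay further out on either side. Its correlation was -0.50 with Clec4d (rho -0.50; p = 0.0021, adjusted p = 0.0118) and -0.52 with Clec4e (rho -0.52; p = 0.0014, adjusted p = 0.0098). With Krt14 it was 0.43 (p = 0.00576, adjusted p = 0.0269) and rho 0.63 (adjusted p = 0.00063), and 0.72 without the 2 arrays farthest in Krt14. Within groups the adjusted p was 0.0255 for Clec4e, 0.074 for Clec4d and 0.129 for Krt14, so the pairs with Clec4d and Krt14 did not pass there. Il1r2 also went with the number of detected probes (r = 0.66, rho = 0.60, permutation adjusted p = 0.00024), whose part in these pairs was not tested. The 5 genes most like Il1r2 over the 35 arrays were Auts2 (r = 0.97), Mfap3l, Arhgap44, Gldn and Col7a1 (0.95 each), the last encoding the anchoring collagen of the dermal-epidermal junction. Il1rn, the interleukin 1 receptor antagonist, had r = 0.88 with Il1r2, Il1a 0.83, and Il1b 0.13. Among 9889 genes Krt14 ranked 2762 by likeness to Il1r2, Clec4d 7447 and Clec4e 7555. The r with Il1r2 ran from 0.74 (Col1a1) to 0.87 (Col1a2) over the connective tissue genes. Over the epidermal genes it ran from 0.28 (Krt6b) to 0.84 (Krt15), and over the macrophage genes from -0.03 (C1qb) to 0.87 (Cd163).

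The genes nearest to S100a8 over the 35 arrays were Slc7a11, the cystine transporter (r = 0.93), Map3k6 (0.86), Gjb6, a connexin of keratinocytes (0.85), Ankrd13a and B3gnt5 (0.83 each). These and all such values are descriptions over arrays that share groups and depth, and in all 276 genes, or 2.79%, had an r over 0.5 with S100a8. Among 9889 genes Clec4d ranked 186 and Clec4e 205 by likeness to S100a8, Csf3r 2384 and Krt14 2491. Slc7a11 was 8.19 on shTGFb day 4 replicate 6 and 7.64 on wild-type day 14 replicate 4, and 4.88 on shTGFb day 4 replicate 1, the array of that group with low S100a8. Over all 38 arrays its r with S100a8 was 0.22, because it was high, at 7.66 to 11.19, on the 3 arrays lacking Dcn.

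The measured neutrophil genes had correlations with S100a8 centred near 0. Of 36 listed genes 18 were measured. S100a9, Ly6g, Cxcr2, Mmp8, Camp and Ngp were among those without a named probe, so their levels were not examined. Of the 18, 10 had a positive r with S100a8, with a median of 0.02. The range ran from -0.35 (Itgam, an integrin of myeloid cells) to 0.43 (Fpr2, a formyl peptide receptor). Over all genes the median was -0.03. Of 6 measured genes of Clec4 and Fc receptor signalling, 5 had an r below 0 with S100a8 (median -0.17), among them Clec4n at -0.31, Clec7a at -0.29 and Fcer1g at -0.12, and Malt1 was at 0.33. None of the 6 passed after adjustment over 86 list genes. Irak2, a kinase of interleukin 1 receptor signalling, had the lowest r of all list genes, -0.63 (rho -0.66, permutation adjusted p = 0.00143). All 12 macrophage genes had an r below 0 with S100a8, from -0.23 to -0.0032, and so had all 7 pigment genes. No gene of either list passed after adjustment. Of 18 epidermal genes 13 were positive with a median of 0.11. The keratins of resting epidermis were near 0 or below, Krt5 at -0.0027 and Krt1 at -0.26. Krt6b, a keratin induced in wounded epidermis, had r = 0.62 and rho = 0.70 (permutation adjusted p = 0.0015), and Sprr1a, a cornified envelope protein, 0.49 and 0.61. The other wound keratins were weaker and did not pass, Krt16 at r = 0.39 (adjusted p = 0.203) and Krt17 at r = 0.22 (adjusted p = 0.54). Of 11 gland genes 10 were positive with a median of 0.31, led by Elf5, a transcription factor of gland epithelium (r = 0.74, rho = 0.64), Cldn3 (0.68 and 0.61) and Cldn4 (0.60 and 0.53), both tight junction claudins. Only these 3 of the 11 passed after adjustment. Krt7, Krt8, Krt19 and Csn3 had r between 0.12 and 0.17, and Wfdc2 was at -0.03. Genes singled out from these lists here were chosen after their values were seen.

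On shTGFb day 4, Krt6b was 8.14 on replicate 1 and 9.22 to 12.92 on replicates 2 to 6, and Elf5 was 6.41 against 7.63, 8.06, 6.91, 7.45 and 8.13. S100a8 was high without Elf5 on other arrays: Elf5 was at 5.29 on shTGFb day 14 replicate 3 and at 5.60 on shVEGF day 14 replicate 3, where S100a8 was 9.88 and 9.16. Given Krt6b, a gene chosen after seeing the data, the partial correlation of S100a8 was 0.63 with Clec4d and 0.62 with Clec4e (permutation adjusted p = 0.00036 for both, over 6). Krt6b itself had r = 0.12 with Clec4d and 0.11 with Clec4e, so this step could lower the correlations little. The part of Elf5 in them was not tested. On shVEGF day 4 replicates 4 and 5, Clec4d was high, at 7.40 and 7.65, with Krt6b at 4.51 and 5.09 and S100a8 at 7.72 and 7.42.

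**Figure D4:**
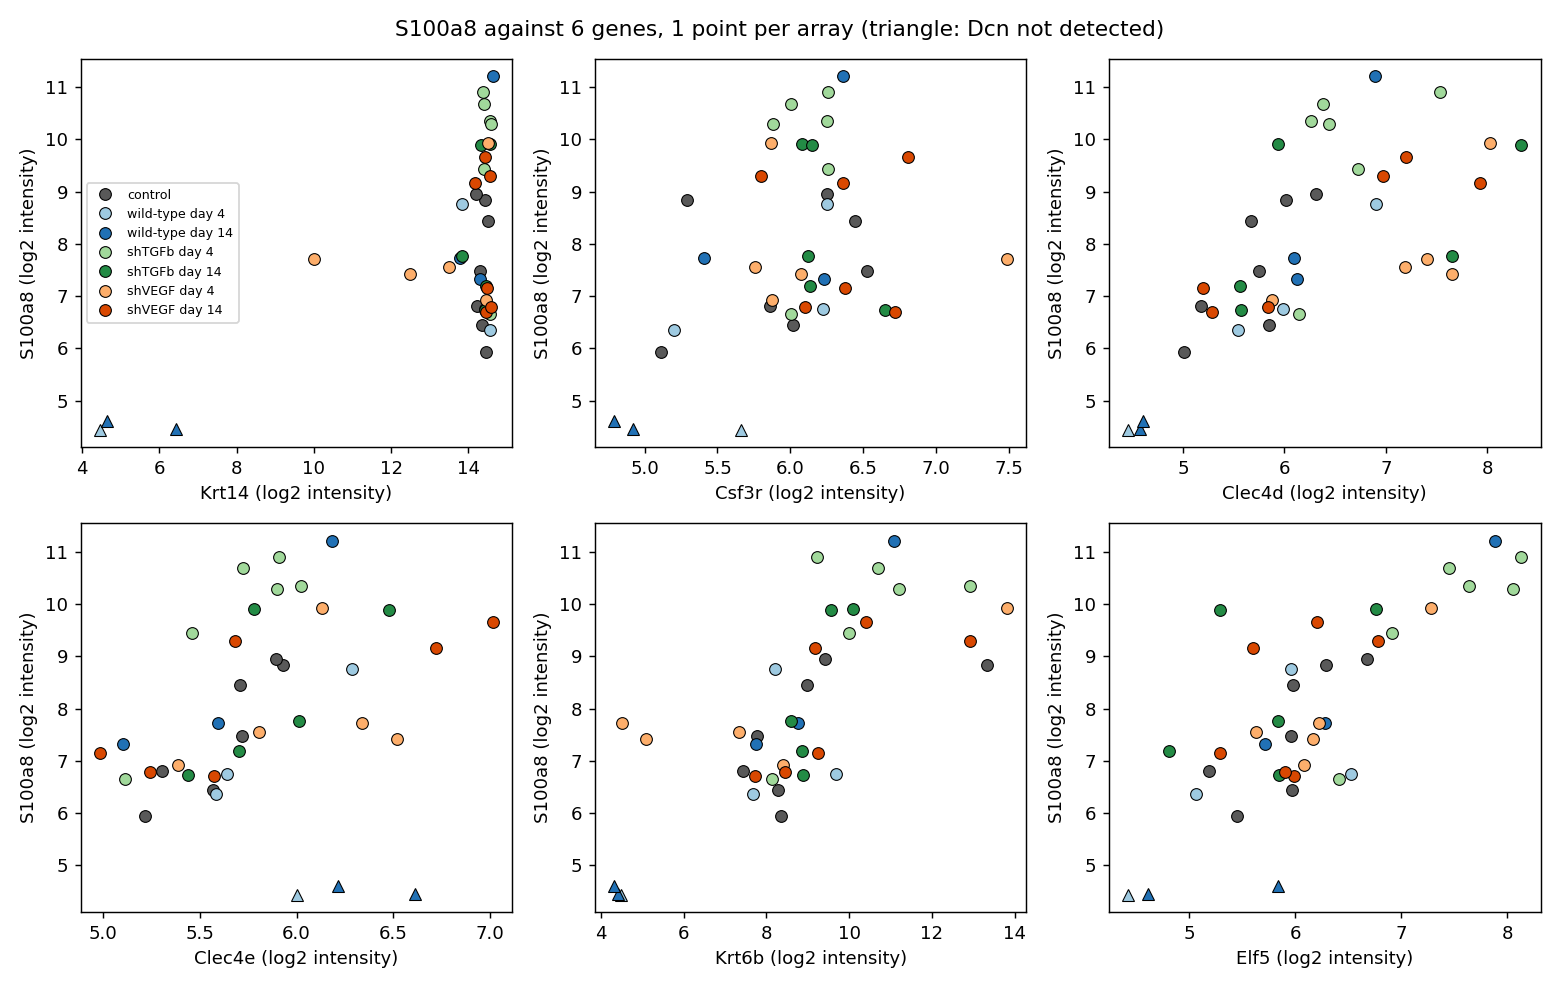
Log2 intensity of S100a8 (vertical axes) against Krt14, Csf3r, Clec4d, Clec4e, Krt6b and Elf5 (horizontal axes), with 1 point for each of 38 arrays coloured by group and triangles for the 3 arrays lacking Dcn. Over the other 35 arrays r was 0.13, 0.14, 0.57, 0.55, 0.62 and 0.74.

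The genes most like the other members are given by member. For Retnlg they were Il4 (r = 0.95), Nfe2 and Cebpe (0.90 each), Gapt (0.89) and Rnase2a (0.86). Cebpe is a transcription factor of maturing granulocytes, and all 5 were highest on shVEGF day 4 replicate 4, where Cebpe was 10.01 and Rnase2a 13.97. Without the 2 arrays farthest in Retnlg these r were 0.77 to 0.93. For Csf3r they were Tnfrsf1b (0.78), a receptor for tumor necrosis factor, Il10ra (0.72), Tlr6 (0.71), Gab3 and Rasa4. Ltf was most like Wfdc2 (0.93), Snorc (0.91), Krt19 (0.88), Csn3, a milk casein (0.87), and Ido1 (0.86). Its r with Lcn2, lipocalin 2 of neutrophil granules and epithelium, was 0.71, and with Cebpe 0.01. Clec4d was most like Nars (0.80), Rab5c and Mt2 (0.77 each), Clec4e and Pwp2, and on all 38 arrays the r with Nars was -0.16. Clec4e was most like Clec4d, Alkbh4 (0.74), Acod1, an enzyme of activated macrophages that makes itaconate, and Parp12 (0.73 each), and Mt2. Fpr2 had r = 0.63 with Clec4d and 0.65 with Clec4e.

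Across the groups, 0 of the 18 measured neutrophil genes passed in any comparison, with 0% of genes called in each. Against control, 13 of 18 had a positive difference on shVEGF day 4 (median 0.25) and on shVEGF day 14 (0.19), 11 on shTGFb day 4 (0.16) and 10 on shTGFb day 14 (0.04). On wild-type day 4 and day 14 the counts were 1 and 2, with medians of -0.61 and -0.82, and 8 and 9, with medians of -0.03 for both, without the arrays lacking Dcn. Over all 9890 genes, 4298 to 5399 were positive against control in each tumor group, and 4298 to 5331 without those arrays. The mean log2 intensity of the 18 genes overlapped between all groups on the 35 arrays, from 7.47 to 8.54 in control tissue and up to 9.28 on shVEGF day 4. Of the interleukin 1 list 8 of 11 genes were measured and 0 passed. Of the listed neutrophil chemoattractants only Cxcl1 was measured, at 5.19 to 8.33 on the 35 arrays and at 11.75, 13.36 and 8.24 on the 3 arrays lacking Dcn.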

How the data were processed

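RNA of 38 tissue samples was measured on Illumina mouse bead arrays. The deposited non-normalized table gives signal intensity per probe with a detection p-value, and the authors' deposited normalized table holds log2 intensity of 16247 of the 45272 probes; tested on the files, it is the quantile-normalized log2 of the signals without background correction (largest difference 5.0e-14). BeadStudio and limma are the tools in the submitters' processing notes; the sources used here give no version of either. Genes were named from the platform annotation, which was at hand only for the 16247 probes of the normalized table. Of these, 14836 probes had 1 symbol, 5 several and 1406 none, and 14830 matched the RefSeq table of GRCm38.p6. Genes whose probes lie only outside that table were not examined.

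Signals were background-corrected (normexp with detection p-values, offset 16), quantile-normalized and taken as log2 in limma 3.58.1 (R 4.3.3). Requiring detection on 4 or more arrays removed 0 named probes, so the set of genes was fixed by the normalized table. Where a gene had several probes, the one with the highest mean stood for it. A limma fit with 7 group means over 38 arrays gave 11 comparisons, adjusted by Benjamini-Hochberg over 9890 genes and tested on simulated data. Correlations used 100000 permutations (SciPy 1.17.1, NumPy 2.4.6) over the 35 arrays with Dcn detected. The text names the 7 members with the difference from control and the pooled comparison of smallest p, the 5 genes most like each, and list genes. The members, lists and the split by Dcn were chosen with earlier results of these data known. The number of arrays limits the precision. Same-numbered arrays of different groups deviated together with a median correlation of 0.08 over 102 pairs, 49 of them over 0.1, so the numbers of the titles were not taken to pair samples. Alternatives are given below.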

Additional observations from a re-analysis of the deposited data

Results flagged for a closer look

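In 7 of 56 groups of 4 to 7 arrays, over the 7 members and Krt14, 1 array lay far from the others of its group by Dixon's 95% criterion, which chance meets in about 1 of 20 groups. S100a8 was 6.65 in log2 intensity on shTGFb day 4 replicate 1, where the other 5 arrays were at 9.44 to 10.90. S100a8 was 9.92 on shVEGF day 4 replicate 2, where the others were at 6.93 to 7.72, and Dct was 8.10 on that array. Csf3r was 6.65 on shTGFb day 14 replicate 4, against 6.08 to 6.15. Csf3r was 7.49 and Retnlg 12.31 on shVEGF day 4 replicate 4, against 5.76 to 6.07 and 6.13 to 7.76. Il1r2 was 7.47 on control replicate 6, against 8.95 to 10.05. Krt14 was 4.47 and not detected on wild-type day 4 replicate 4, 1 of the 3 arrays lacking Dcn, against 13.82 to 14.55.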

How the results depend on the processing

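Counts of called genes stayed at 0 in all 12 tests without background correction, with offset 50, with the deposited table, with median scaling, with the mean of all probes, with detection on at least 19 arrays, without the arrays lacking Dcn and with the replicate number as a block (0 genes called in each; the numbers do not pair the samples). Array weights gave 102 genes between any groups, 775 for shTGFb day 4 and 1 for shTGFb day 14 against control, and 0 in the others. Leaving out 1 array gave 0 to 1443 genes for wild-type day 14 against control (1443 without wild-type day 14 replicate 1, 1284 without replicate 4), 0 to 1673 for shTGFb against wild-type (892 without wild-type day 4 replicate 2, 784 and 1673 without wild-type day 14 replicates 1 and 4), 0 to 886 for shVEGF against wild-type (760, 704 and 886 without the same arrays) and 0 to 5 for shTGFb day 4 against control (5 without its replicate 1). The cause was not tested.

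Of the 14 differences chosen by smallest p, 7 of 126 values under other settings changed sign, and 0 of 532 with 1 array left out. Between shTGFb and wild-type, Clec4e was -0.12 and became 0.087 with median scaling, 0.032 with array weights and 0.054 without the arrays lacking Dcn; Retnlg was 0.81 and became -0.10 with weights and -0.52 without those arrays; Ltf was 0.75 and became -0.71 and -0.21. Between shVEGF and wild-type, Il1r2 was 1.54 and became 0.25 without those arrays. Of the other 74 differences, 54 of 666 and 126 of 2812 changed sign.

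The correlation of S100a8 with Retnlg became 0.025 without background correction and with the deposited table, and 0.28 on all 38 arrays; with Ltf it became -0.010 without background correction and with the deposited table, -0.0091 with offset 50, and -0.023 with median scaling. On all 38 arrays it was 0.28 with Il1r2, 0.39 with Csf3r (adjusted p = 0.0344), 0.58 with Krt14 and 0.26 with Clec4e. Leaving out 1 array gave -0.14 to 0.0082 for Retnlg, -0.079 to 0.068 for Ltf, 0.11 to 0.16 for Krt14, 0.53 to 0.61 for Clec4d and 0.52 to 0.60 for Clec4e.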
